A study of Mus musculus with 24 samples.

Results

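The genes described here encode the entry gate of the secretory pathway and the coats that carry its cargo between the endoplasmic reticulum (ER) and the Golgi. A list of 49 genes was matched by symbol to the 27179 genes of the deposited count tables, and all 49 were found and passed the filter of at least 0.5 CPM (counts scaled to library size) in at least 2 libraries in each stage, so no member was lost to low expression. They fall into 8 role groups, which are the Sec61 translocon (5 genes), the translocon-associated protein complex TRAP (4), the signal recognition particle SRP and its receptor (8), the signal peptidase (5), the oligosaccharyltransferase (6), the COPII coat (10), the COPI coat (7) and cargo receptors (4).

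RNA-seq was performed on lymph node B cells of C57BL/6 mice of 4 genotypes, either naive or after 48 h of culture in CD40L + IL-4 or LPS + IL-4, with 2 libraries per genotype and stage and 24 in all. Control mice were Cd23T/+ and therefore carried the Cre transgene, and PU.1 cKO mice were Spi1fl/fl Cd23T/+. SpiB KO mice were Spi1fl/fl Cd23+/+ Spib-/-. The double knockout, PU.1 SpiB DKO, was Spi1fl/fl Cd23T/+ Spib-/-. Cre was expressed from a BAC transgene under Cd23 regulatory sequences, active from the transitional B cell stage onwards. The SpiB KO group therefore differed from the control group in carrying no Cre and in its floxed Spi1 alleles, as well as in Spib. The gate described for RNA-seq sorting was CD3- B220+ CD138-, which leaves out CD138+ antibody-secreting cells, and 1 age range is given for all mice and none per group. The duplicates are described as biological, and the p-values reflect the spread between these libraries.

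A protein destined for secretion or for a membrane is recognised by SRP as its signal sequence leaves the ribosome, is docked at the SRP receptor and is threaded through the Sec61 channel. Signal peptidase then removes the signal sequence, the oligosaccharyltransferase adds N-linked glycans to the growing chain, and COPII vesicles carry the folded product to the Golgi, from which COPI vesicles return escaped ER residents. In B cells this machinery is known to expand as the cells turn into antibody-secreting cells, in which XBP1, the transcription factor of the unfolded protein response, increases its expression.

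Library totals ranged from 14.2 to 18.2 M counts in naive cells and from 22.8 to 73.7 M after LPS + IL-4, while 7 CD40L + IL-4 libraries held 9.6 to 11.4 M and PU.1 cKO replicate 2 held 61.6 M. The lowest count of any member was 28, for Sec61g in naive PU.1 cKO replicate 2, so counting error was small for nearly all members. Spib, the deleted factor, fell to between 9.05 and 100.4 CPM in the libraries without it, against 211 to 1472 in control. Spi1, which encodes PU.1, is counted over all its exons, including those outside the floxed part, so its total is only a partial check. It was 155 and 174 CPM in naive control against 59.5 and 53.2 in PU.1 cKO and 103 and 110 in PU.1 SpiB DKO. After CD40L + IL-4 it was 84.9 and 108 CPM in control, 46.9 and 35.1 with PU.1 cKO and 32.5 and 25.6 with PU.1 SpiB DKO. After LPS + IL-4 it was 72.0 and 60.7 CPM in control, 44.2 and 41.2 with PU.1 cKO and 63.9 and 58.9 with PU.1 SpiB DKO. The last difference did not pass the test (log2 fold change -0.11 ± 0.10, adjusted p = 0.448). In naive cells Spi1 was higher in PU.1 SpiB DKO than in PU.1 cKO (log2 fold change 0.92 ± 0.11, adjusted p = 0.00057). By the exon coverage shown in the study, naive double knockout cells kept part of the floxed Spi1 exon, whereas it was excised in both cultures. Naive PU.1 SpiB DKO is therefore an incomplete deletion of PU.1, and its comparisons with PU.1 cKO and with the cultures also differ in how much Spi1 was left. Gene counts cannot show exon coverage, so the LPS + IL-4 libraries are called by their labels below.

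Markers of other cell states moved with the genotypes. The summed level of 10 plasma cell markers after CD40L + IL-4 was 1160 to 1330 CPM in control, 2290 to 2420 with PU.1 cKO and 2910 to 2970 with PU.1 SpiB DKO, and 951 to 1070, 1550 to 1720 and 2030 to 2140 CPM after LPS + IL-4. In naive cells 10 markers of plasmacytoid dendritic cells (pDC) summed to 2080 to 2260 CPM in control, 3560 to 4320 in SpiB KO and 3710 to 4140 in PU.1 SpiB DKO. Ly6d had the highest maximum of these 10 in naive libraries, 2600 CPM, followed by Bst2 at 605. Ly6d also reached 591 CPM after CD40L + IL-4 and 458 after LPS + IL-4. Siglech, which marks pDC, was 57.2 and 23.9 CPM in naive control and 267 and 229 in naive PU.1 SpiB DKO. The 8 T cell markers summed to 72.2 to 116 CPM in naive control, 381 to 460 in naive SpiB KO and 564 to 573 in naive PU.1 SpiB DKO, while Cd3d, Cd3e and Cd3g stayed at or below 1.23 CPM. They summed to 91.8 to 95.2 CPM in control and 238 to 250 in PU.1 SpiB DKO after CD40L + IL-4, and to 49.5 to 58.8 and 170 to 188 CPM after LPS + IL-4. Thy1 and Lck made up most of these culture sums. Their maxima were 190 and 75.5 CPM after CD40L + IL-4 and 127 and 63.3 after LPS + IL-4. Every other T cell marker stayed at or below 1.84 CPM in the cultures. The 8 cycling cell markers summed to 13.4 to 32.9 CPM over all naive libraries, to 1470 to 2150 CPM in control and 1770 to 1800 in PU.1 SpiB DKO after CD40L + IL-4, and to 2310 to 2510 and 2710 to 3130 CPM after LPS + IL-4. The 9 macrophage markers summed to 13.7 to 25.3 CPM in naive control, 52.5 to 63.9 in naive SpiB KO and 72.8 to 72.9 in naive PU.1 SpiB DKO. They summed to 44.4 to 59.5 CPM in control and 8.86 to 12.1 in PU.1 SpiB DKO after CD40L + IL-4, where C1qa, C1qb and Csf1r were at 0 in all 8 libraries. The 8 B cell markers, of which none was at 0 in any group, summed to 33400 to 38300 CPM in control and 22800 to 24000 in PU.1 SpiB DKO in naive cells, and to 20800 to 27100 and 12400 to 14400 CPM after CD40L + IL-4. The part of these differences in the results below was not tested, and in bulk RNA fewer cells of a type cannot be told apart from less RNA per cell.

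The share of all counts that fell on the 49 genes gives a first view of the machinery as a whole. It was 0.617% ± 0.0262 (SD, n = 2) in naive control, 0.661% ± 0.00764 with PU.1 cKO, 0.713% ± 0.0257 with SpiB KO and 0.742% ± 0.0116 with PU.1 SpiB DKO. After CD40L + IL-4 it was 0.772% ± 0.0152 in control, 0.974% ± 0.0395 with PU.1 cKO, 0.785% ± 0.0788 with SpiB KO and 1.08% ± 0.0679 with PU.1 SpiB DKO. The single and the double knockout of PU.1 both lay above every control and SpiB KO library. After LPS + IL-4 it was 0.872% ± 0.0401 in control, 0.975% ± 0.014 with PU.1 cKO, 0.855% ± 0.0114 with SpiB KO and 1.02% ± 0.0113 with PU.1 SpiB DKO. The range was narrower than after CD40L + IL-4.

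**Figure D1:**
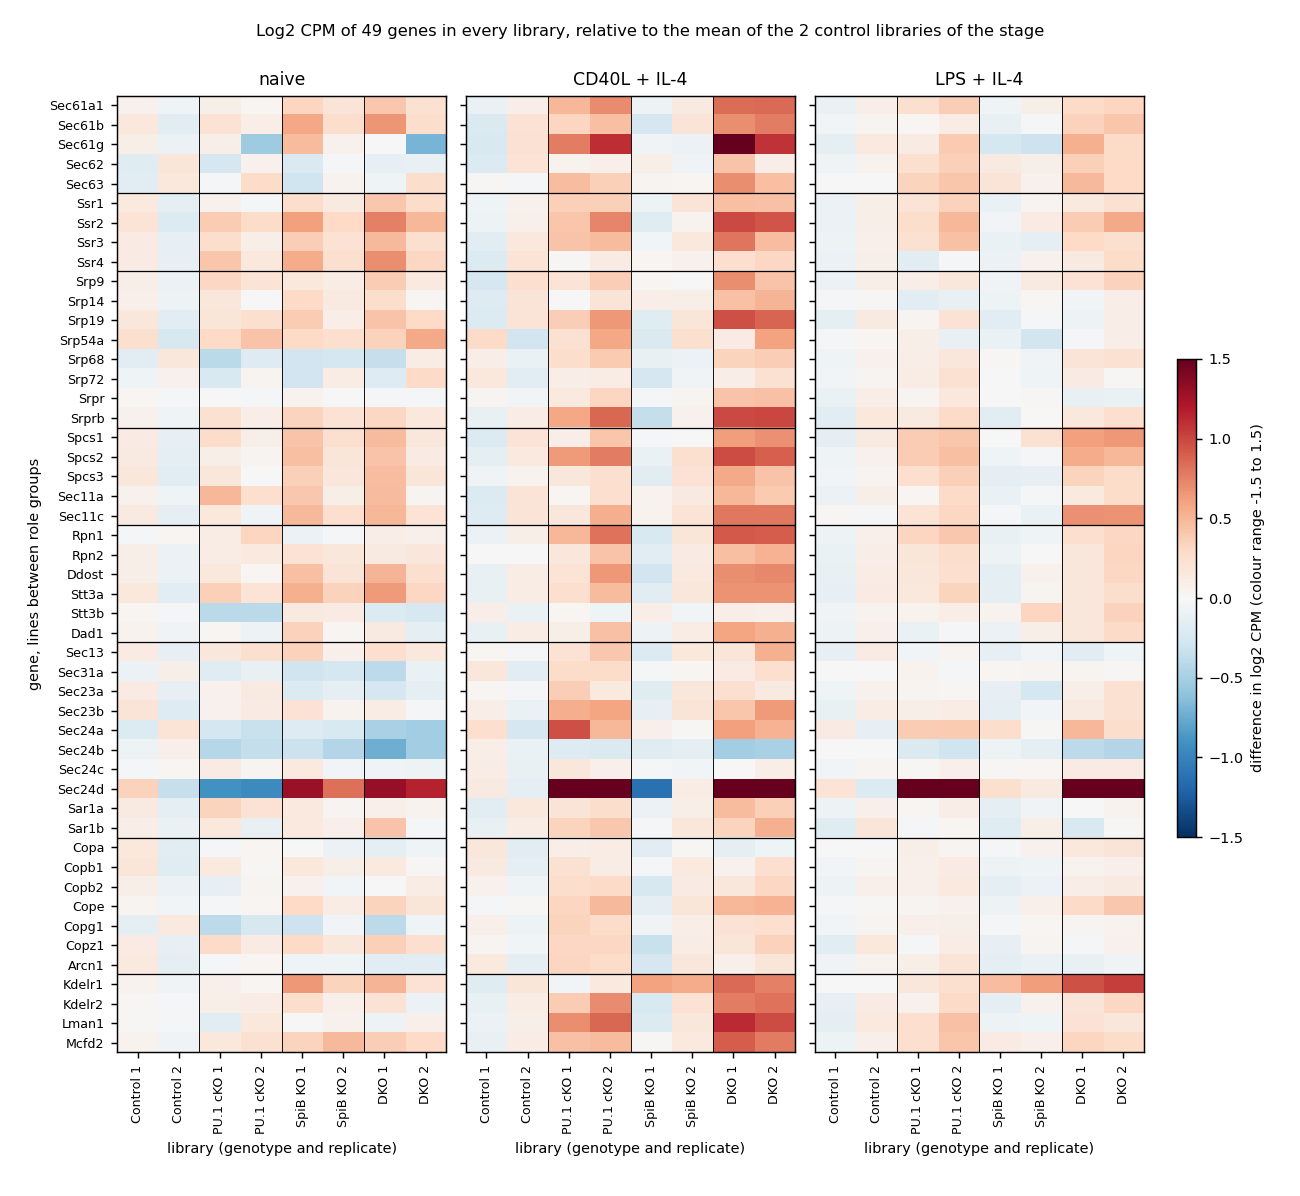
Level of each of the 49 genes (one per line, ordered by role group with lines between groups) in each of the 24 libraries (columns, by stage and genotype), as the difference in log2 CPM from the mean of the 2 control libraries of the same stage, with colours limited to -1.5 and 1.5. After CD40L + IL-4 most genes lie above control in the single and the double knockout of PU.1, and Sec24b lies below it.

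A gene is called higher or lower here at an adjusted p under 0.15 (edgeR's quasi-likelihood test, Benjamini-Hochberg over all genes tested), and differentially expressed (DE) when its fold change also exceeded 1.5 and its mean deposited log2 RPKM was above 0. These thresholds follow the study. Fold changes are on the log2 scale with their standard error (SE), and levels are CPM normalised over the 8 libraries of a stage. The SE was derived from the test, as the absolute log2 fold change divided by the square root of its F statistic. The 3 comparisons with control in a stage share the same 2 control libraries and are therefore not independent of each other.

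Promoter windows of 4 members are shown. After CD40L + IL-4 Sec24d, Rpn1 and Srprb were called higher in PU.1 cKO and in PU.1 SpiB DKO, Sec24d with the largest fold of the 49. Srprb was not called in PU.1 SpiB DKO after LPS + IL-4. Sec24b was called lower in PU.1 SpiB DKO in every stage. The windows run from 250 bases before to 50 bases after the start in the RefSeq table of GRCm38.p6, which held 40 of the 49 members. The choice was made after the values were seen, and for Sec24d and Sec24b the start in the table lies inside the annotated gene. Capitals mark, on either strand, TGACGTG and CCACG and CCAAT and GAGGAA. Of these, CCACG and CCAAT are the ends of the ER stress element and GAGGAA is an ETS-like core, the kind of motif that PU.1 and SpiB bind. Sec24d lies at chr3:123267246-123267545 on the plus strand, Rpn1 at chr6:88084223-88084522 on the plus strand, Srprb at chr9:103202016-103202315 on the minus strand and Sec24b at chr3:130060858-130061157 on the minus strand.
Sec24d: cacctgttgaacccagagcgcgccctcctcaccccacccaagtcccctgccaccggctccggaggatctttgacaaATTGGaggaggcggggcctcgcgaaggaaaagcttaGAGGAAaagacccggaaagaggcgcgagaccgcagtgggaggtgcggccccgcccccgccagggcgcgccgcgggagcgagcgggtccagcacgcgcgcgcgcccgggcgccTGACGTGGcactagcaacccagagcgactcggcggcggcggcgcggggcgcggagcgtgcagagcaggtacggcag
Rpn1: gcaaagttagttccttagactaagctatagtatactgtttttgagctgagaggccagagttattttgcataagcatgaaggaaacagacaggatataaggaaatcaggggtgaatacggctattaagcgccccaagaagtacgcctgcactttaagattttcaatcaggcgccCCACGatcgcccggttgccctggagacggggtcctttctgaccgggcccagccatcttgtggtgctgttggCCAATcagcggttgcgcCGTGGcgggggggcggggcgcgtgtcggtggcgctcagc
Srprb: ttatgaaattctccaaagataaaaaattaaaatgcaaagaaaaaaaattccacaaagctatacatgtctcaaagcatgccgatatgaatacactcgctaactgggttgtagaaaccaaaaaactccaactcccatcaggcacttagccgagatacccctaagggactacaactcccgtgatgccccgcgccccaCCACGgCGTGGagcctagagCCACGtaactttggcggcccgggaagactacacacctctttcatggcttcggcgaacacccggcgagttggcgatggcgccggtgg
Sec24b: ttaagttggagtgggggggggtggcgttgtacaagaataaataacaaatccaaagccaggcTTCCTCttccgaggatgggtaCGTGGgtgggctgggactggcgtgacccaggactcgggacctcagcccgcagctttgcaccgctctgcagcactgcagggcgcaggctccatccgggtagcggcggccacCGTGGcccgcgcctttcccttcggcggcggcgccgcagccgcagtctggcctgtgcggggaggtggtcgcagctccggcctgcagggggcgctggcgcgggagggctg

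The Sec24d window held TGACGTG at bases 225 to 231, counted from the 5′ end of the window, and this match overlapped a CCACG on the other strand. The Rpn1 window held CCAAT and CCACG but not at the spacing of the full element, and the Srprb window held 3 copies of CCACG. The full ER stress element, CCAAT and CCACG with 9 bases between them, was in 0 of the 40 member windows and in 0.137% of the 27025 genes with a window. The related element ATTGG, any base and CCACG was likewise in 0 members and in 0.0444% of genes. TGACGTG was in 5 members (12.5%), which were Copb1, Copb2, Sec23a, Sec24d and Srpr, against 2.22% of all genes. CCACG was in 26 members (65.0%) against 35.5%, CCAAT in 18 (45.0%) against 41.1% and GAGGAA in 13 (32.5%) against 31.3%. The background of 27025 genes was not limited to genes expressed here and was not matched for base composition, so these shares do not test enrichment. These matches describe the letters in a window and not binding.

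In naive B cells the largest differences of PU.1 SpiB DKO, in which Spi1 was only partly deleted, were in Sec24d and Sec24b, which encode cargo-binding subunits of the COPII coat, and in Ssr2 of the TRAP complex, which assists the Sec61 channel. In PU.1 SpiB DKO 16 members were higher and 3 lower than in control, where 18.2% and 16.6% of all 12500 genes tested were higher and lower. Only 3 members were DE, against 14.1% of all genes, and these were Ssr2, Sec24b and Sec24d. The median log2 fold change of the members was 0.15, against 0.002 over all genes, with 36 of 49 above 0. In the same genotype 8 of the 10 pDC markers and 6 of the 9 plasma cell markers tested were higher, and their part was not tested. All 4 TRAP genes rose. Ssr2, a TRAP subunit, had 128 and 96.2 CPM in control, 144 and 134 with PU.1 cKO, 170.1 and 136 with SpiB KO and 188 and 156 with PU.1 SpiB DKO. The PU.1 SpiB DKO libraries lay above both control libraries (log2 fold change 0.62 ± 0.16, adjusted p = 0.027), and those of SpiB KO did too without passing the test (log2 fold change 0.45 ± 0.16, adjusted p = 0.15).

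The other role groups of naive PU.1 SpiB DKO cells moved less. Sec61b, a small subunit of the Sec61 channel, had 69.9 and 55.9 CPM in control, 72.7 and 67.2 with PU.1 cKO, 93.3 and 75.3 with SpiB KO and 98.7 and 75.1 with PU.1 SpiB DKO, a difference from control of 0.47 ± 0.17 on the log2 scale, adjusted p = 0.086. Stt3a, the catalytic subunit of the oligosaccharyltransferase that works on chains still being made, had 271 and 217 CPM in control, 312 and 279 with PU.1 cKO, 351 and 307 with SpiB KO and 377 and 300.5 with PU.1 SpiB DKO. It rose in PU.1 SpiB DKO (log2 fold change 0.47 ± 0.15, adjusted p = 0.056), whereas Stt3b, the catalytic subunit that glycosylates sites that were skipped, fell (log2 fold change -0.22 ± 0.09, adjusted p = 0.12). Srp19, an RNA-binding subunit of SRP, had 48.2 and 37.97 CPM in control, 48.5 and 50.7 with PU.1 cKO, 55.8 and 45.7 with SpiB KO and 57.4 and 52.7 with PU.1 SpiB DKO (log2 fold change 0.35 ± 0.15, adjusted p = 0.14). Sec11c, a catalytic subunit of signal peptidase, had 113 and 93.7 CPM in control, 115 and 98.8 with PU.1 cKO, 144 and 122 with SpiB KO and 145 and 119 with PU.1 SpiB DKO (log2 fold change 0.35 ± 0.15, adjusted p = 0.13). Copz1, the zeta subunit of the COPI coat, had 72.1 and 61.01 CPM in control, 80.8 and 72.01 with PU.1 cKO, 81.4 and 74.6 with SpiB KO and 85.1 and 79.2 with PU.1 SpiB DKO (log2 fold change 0.30 ± 0.13, adjusted p = 0.12). For Sec11c, Srp19 and Copz1 the shift was thus at the edge of the threshold, and 7 of the 8 SRP genes and 5 of the 7 COPI genes did not pass it.

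In the single knockouts few naive members were called. In PU.1 cKO 0 members were higher and 3 were lower, with 7.41% and 9.84% of all genes so called. These were Stt3b (log2 fold change -0.40 ± 0.09, adjusted p = 0.036), Sec24b (log2 fold change -0.40 ± 0.12, adjusted p = 0.079) and Sec24d, the 1 DE member, where 8.4% of all genes were DE. In SpiB KO 4 members were higher and 1 lower, against 7.24% and 5.39% of all genes, and 1 was DE against 6.35%. The 4 were Sec24d, Stt3a, Mcfd2 and Kdelr1, the receptor that returns KDEL-tagged residents to the ER, and the lower member was Sec24b. Against PU.1 cKO, from which it differed in Spib and in the Spi1 left, the double knockout had 2 members higher, Ssr1 and Sec24d, and 0 lower, with background shares of 11.8% and 6.29%. Sec24d was the 1 DE member, where 7.21% of all genes were DE. An interaction, that is a PU.1 SpiB DKO effect other than the sum of the single knockout effects, was called for 0 members by the quasi-likelihood test, with 1 at an unadjusted p under 0.05, and for 0.936% of all genes. DESeq2 called 1, and the fit with the replicate number as a block called 2. SpiB KO and control also differed in Cre and in the floxed Spi1 alleles. In every stage an interaction therefore cannot be told apart from an effect of these.

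Single libraries weighed heavily on the naive counts. The 3 DE members of PU.1 SpiB DKO became 8 without control replicate 1, 6 without PU.1 SpiB DKO replicate 2 and 1 without PU.1 SpiB DKO replicate 1 or control replicate 2. Of the 19 members past the adjusted p 2, Sec24b and Sec24d, stayed past it without each library in turn. The 1 DE member of PU.1 cKO became 0 without control replicate 1 or either PU.1 cKO library. The 1 of SpiB KO became 3 without control replicate 1, 2 without SpiB KO replicate 2 and 0 without SpiB KO replicate 1 or control replicate 2, and the interaction count became 1 without control replicate 2.

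After CD40L + IL-4, cells that lacked PU.1 had higher levels of the translocation, signal cleavage, glycosylation and cargo receptor genes, and the double loss gave the larger set. In PU.1 SpiB DKO 32 members were higher than in control and 1, Sec24b, was lower, where 12.5% and 12.7% of all 12721 genes tested were higher and lower. Of these 18 were DE, all higher, against 13.7% of all genes. In PU.1 cKO 15 were higher and 0 lower, against 7.81% and 8.84% of all genes, and 8 were DE against 9.36%. In SpiB KO 0 were higher, 0 lower and 0 DE by the quasi-likelihood test, with 1 at an unadjusted p under 0.05, and all genes gave 0.0786%, 0.055% and 0.11%. DESeq2 and limma's voom also called 0 members DE in SpiB KO. The median log2 fold change of the members was 0.50 with both factors lost, 0.31 with PU.1 lost and 0.001 with SpiB lost, and that of all genes lay between -0.01 and 0.002. In the same 2 genotypes 8 of the 10 plasma cell markers were higher than in control, and their part in these rises was not tested.

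**Figure D2:**
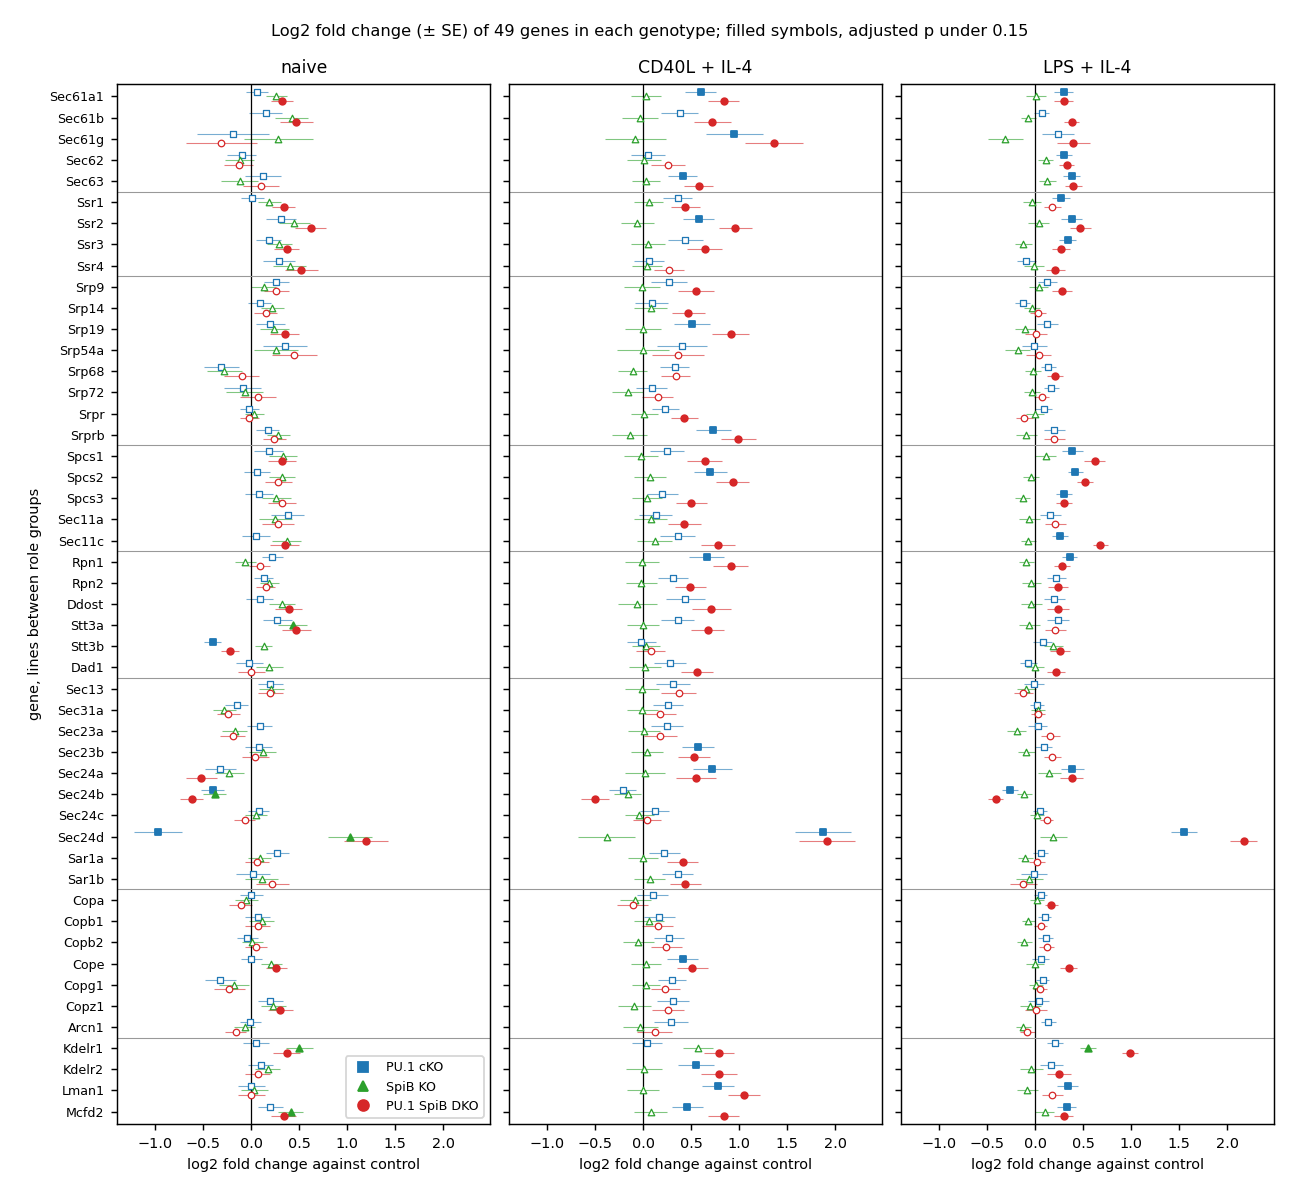
Log2 fold change against control (points, bars are SE) of each of the 49 genes in PU.1 cKO (squares), SpiB KO (triangles) and PU.1 SpiB DKO (circles), with 1 panel per stage and filled symbols for an adjusted p under 0.15. After CD40L + IL-4 the filled symbols above 0 are 15 squares and 32 circles, and no triangle is filled.

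Of the 5 translocon genes 4 rose in PU.1 SpiB DKO, and the median log2 fold change of the 5 was 0.72. Sec61g, the small gamma subunit of the channel, had 3.07 and 4.19 CPM in control, 6.12 and 7.71 with PU.1 cKO, 3.45 and 3.38 with SpiB KO and 11.01 and 7.62 with PU.1 SpiB DKO. Its PU.1 SpiB DKO libraries were 2.57-fold higher than control (log2 fold change 1.36 ± 0.30, adjusted p = 0.014) and its PU.1 cKO libraries 1.94-fold higher (log2 fold change 0.95 ± 0.30, adjusted p = 0.079), with no overlap, although its counts were the lowest of the 49. Sec61a1, which forms the channel itself, had 339 and 387 CPM in control, 511 and 591 with PU.1 cKO, 344 and 397 with SpiB KO and 649.7 and 651 with PU.1 SpiB DKO. It rose 1.79-fold in PU.1 SpiB DKO (log2 fold change 0.84 ± 0.16, adjusted p = 0.0058) and 1.52-fold in PU.1 cKO (log2 fold change 0.60 ± 0.16, adjusted p = 0.039). Sec61b (log2 fold change 0.72 ± 0.19, adjusted p = 0.033) and Sec63 (log2 fold change 0.58 ± 0.15, adjusted p = 0.029), a partner of the channel for chains that enter after synthesis, also rose in PU.1 SpiB DKO, and Sec62 did not pass the test (log2 fold change 0.26 ± 0.18, adjusted p = 0.38). Among TRAP genes Ssr1, Ssr2 and Ssr3 rose and Ssr4 did not pass (log2 fold change 0.27 ± 0.16, adjusted p = 0.31). Ssr2 had 119.7 and 133 CPM in control, 168 and 209 with PU.1 cKO, 111 and 131 with SpiB KO and 250.3 and 243 with PU.1 SpiB DKO. That is 1.95-fold control for the double loss (log2 fold change 0.96 ± 0.17, adjusted p = 0.0034).

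Of the 8 genes that target ribosomes to the ER 5 rose in PU.1 SpiB DKO, among them both receptor subunits. Srprb, the membrane-anchored beta subunit, had 50.99 and 59.7 CPM in control, 82.7 and 99.9 with PU.1 cKO, 43.1 and 57.5 with SpiB KO and 109 and 110.3 with PU.1 SpiB DKO. Its PU.1 SpiB DKO libraries were 1.98-fold higher than control (log2 fold change 0.99 ± 0.18, adjusted p = 0.005) and its PU.1 cKO libraries 1.65-fold higher (log2 fold change 0.73 ± 0.18, adjusted p = 0.03), whereas the range of SpiB KO included a control value. Srpr, the subunit that docks SRP, rose less (log2 fold change 0.43 ± 0.14, adjusted p = 0.075). Within the particle Srp9, Srp14 and Srp19 rose, of which Srp19 was DE (log2 fold change 0.91 ± 0.19, adjusted p = 0.011). Srp54a, which binds the signal sequence, Srp68 and Srp72 did not pass the test, with log2 fold changes of 0.36 ± 0.27, 0.34 ± 0.15 and 0.15 ± 0.16. Srp54a has near-identical copies, Srp54b and Srp54c, and only uniquely mapped reads were kept, so its count is uncertain.

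All 5 signal peptidase genes rose in PU.1 SpiB DKO, and 3 were DE. Spcs2, an accessory subunit of the enzyme, had 206 and 254 CPM in control, 356 and 389.6 with PU.1 cKO, 213 and 269.9 with SpiB KO and 451 and 425 with PU.1 SpiB DKO. Both PU.1 SpiB DKO libraries were above both control libraries (log2 fold change 0.93 ± 0.17, adjusted p = 0.0051), with a lesser rise in PU.1 cKO (log2 fold change 0.70 ± 0.17, adjusted p = 0.029). The alternative catalytic subunits rose too, Sec11c by 0.78 ± 0.18 and Sec11a by 0.43 ± 0.17 on the log2 scale. Of the oligosaccharyltransferase genes 5 of 6 rose and Stt3b was the exception (log2 fold change 0.08 ± 0.15, adjusted p = 0.75). Rpn1, or ribophorin I, which delivers substrates to the enzyme, had 303 and 344 CPM in control, 457 and 566 with PU.1 cKO, 275 and 366 with SpiB KO and 609 and 608 with PU.1 SpiB DKO. That is a 1.88-fold rise in PU.1 SpiB DKO (log2 fold change 0.91 ± 0.18, adjusted p = 0.0078) and 1.58-fold in PU.1 cKO (log2 fold change 0.66 ± 0.18, adjusted p = 0.047). Ddost (0.71 ± 0.20) and Stt3a (0.67 ± 0.17) were DE in PU.1 SpiB DKO as well.

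**Figure D3:**
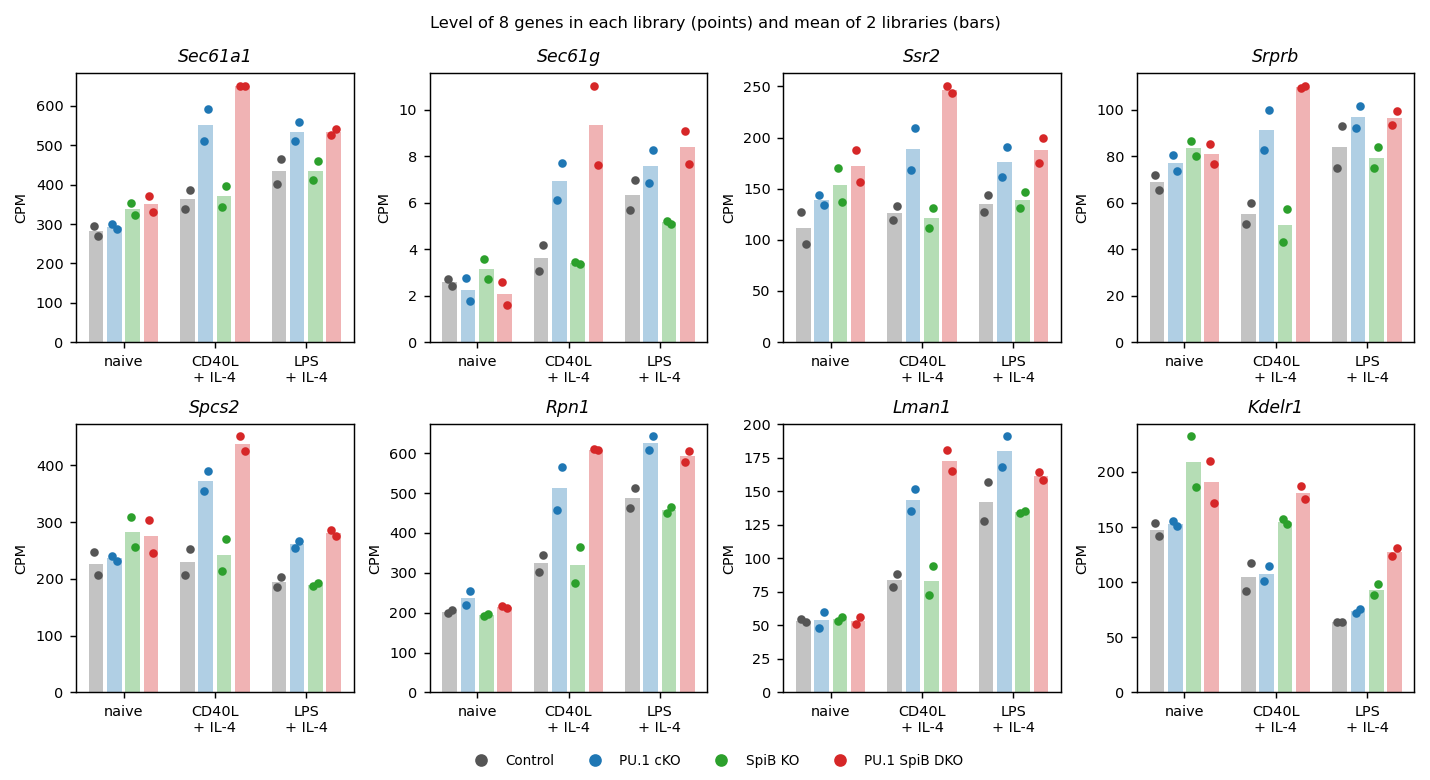
CPM of 8 genes in each library (points) with the mean of 2 libraries (bars, from 0), by stage and genotype. After CD40L + IL-4 the PU.1 SpiB DKO points of all 8 genes lie above both control points, and the PU.1 cKO points do so for all but Kdelr1.

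Of the 10 COPII genes 5 rose and 1 fell, whereas 1 of the 7 COPI genes, Cope, passed the test. The median log2 fold change was 0.39 for COPII and 0.23 for COPI. Sar1a and Sar1b, the GTPases that start the COPII coat, rose by 0.41 ± 0.16 and 0.44 ± 0.16, and Sec23b, an inner coat subunit, by 0.53 ± 0.17. Sec13 and Sec31a, the outer cage, did not pass (0.37 ± 0.18 and 0.18 ± 0.16). Cope, the epsilon subunit of COPI, had 128 and 131 CPM in control, 162 and 181 with PU.1 cKO, 118 and 147 with SpiB KO and 182 and 185 with PU.1 SpiB DKO (log2 fold change 0.51 ± 0.16, adjusted p = 0.058 for the double loss). The alpha subunit Copa differed from control by -0.11 ± 0.16 on the log2 scale, adjusted p = 0.69, which did not pass.

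All 4 cargo receptors were DE in PU.1 SpiB DKO. Lman1, or ERGIC-53, is a lectin that loads glycoproteins into COPII vesicles, and had 78.5 and 88.8 CPM in control, 136 and 152 with PU.1 cKO, 72.6 and 94.1 with SpiB KO and 181 and 165 with PU.1 SpiB DKO. This was 2.07-fold in PU.1 SpiB DKO (log2 fold change 1.05 ± 0.17, adjusted p = 0.0026) and 1.72-fold in PU.1 cKO (log2 fold change 0.78 ± 0.17, adjusted p = 0.017), with SpiB KO spanning the control values. Mcfd2, its partner, rose by 0.84 ± 0.16 and 0.46 ± 0.16 in the same comparisons. Kdelr2 rose in both as well (0.79 ± 0.19 and 0.55 ± 0.19). Kdelr1 followed another pattern, which is described with its LPS + IL-4 values.

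Loss of SpiB in addition to PU.1 gave 1 called difference after CD40L + IL-4. Against PU.1 cKO 1 member, Kdelr1, was higher and DE and 0 were lower, where 2.31% of all genes were higher, 1.92% lower and 3.01% DE. An interaction was called for 0 members, also at an unadjusted p under 0.05, and for 1.17% of all genes, and DESeq2 and voom called 0 as well. The single Kdelr1 call was lost without any 1 of the 4 libraries. The 8 DE members of PU.1 cKO became 4 without control replicate 1 and 3 without the deeply sequenced PU.1 cKO replicate 2. Of the 33 members called in PU.1 SpiB DKO 13 stayed past the adjusted p without each library in turn (Sec61a1, Sec61g, Ssr2, Srp19, Srprb, Spcs2, Sec11c, Rpn1, Sec24d and the 4 cargo receptors), and of the 15 called in PU.1 cKO 2 did, Sec24d and Lman1.

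After LPS + IL-4 many members were again higher in the libraries labelled PU.1 cKO or PU.1 SpiB DKO, but by less. In PU.1 SpiB DKO 26 members were higher and 1, Sec24b, lower, where 25.6% and 22.4% of all 12445 genes tested were higher and lower. Of these 4 were DE, against 13.6% of all genes, and they were Spcs1, Sec11c, Sec24d and Kdelr1. In PU.1 cKO 15 were higher and 1, Sec24b, lower, with 11.2% and 7.8% in the background, and Sec24d alone was DE against 6.67%. In SpiB KO Kdelr1 alone was higher and 0 were lower, against 3.65% and 1.48%, and 0 were DE against 2.29%, also by DESeq2 and voom, with 1 at an unadjusted p under 0.05. The median log2 fold change was 0.21 in libraries labelled PU.1 SpiB DKO, 0.14 in those of PU.1 cKO and -0.04 in those of SpiB KO, with all-gene medians from -0.002 to 0.008. Of the 9 plasma cell markers tested 8 were higher in PU.1 cKO and in PU.1 SpiB DKO, and their part in these rises was not tested either.

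The 5 translocon genes all rose in the libraries labelled PU.1 SpiB DKO, among them Sec63 (log2 fold change 0.40 ± 0.09, adjusted p = 0.0085), Sec61b (log2 fold change 0.38 ± 0.08, adjusted p = 0.0051) and Sec62 (log2 fold change 0.33 ± 0.08, adjusted p = 0.013). Sec61g had 5.66 and 6.98 CPM in control, 6.86 and 8.27 with PU.1 cKO, 5.23 and 5.06 with SpiB KO and 9.09 and 7.67 with PU.1 SpiB DKO (log2 fold change 0.40 ± 0.17, adjusted p = 0.11). Its SpiB KO libraries lay below those of control without passing the test. Ssr2 had 127 and 144 CPM in control, 162 and 190.4 with PU.1 cKO, 131 and 147 with SpiB KO and 175 and 199.5 with PU.1 SpiB DKO, a rise of 0.47 ± 0.11 on the log2 scale, adjusted p = 0.012. Of the 8 SRP genes only Srp9 and Srp68 passed. Srp9, which binds the Alu domain of the SRP RNA, had 57.7 and 65.1 CPM in control, 65.8 and 68.8 with PU.1 cKO, 58.9 and 67.5 with SpiB KO and 71.05 and 78.2 with PU.1 SpiB DKO (log2 fold change 0.28 ± 0.10, adjusted p = 0.055). Rpn1 had 462 and 512 CPM in control, 608 and 642 with PU.1 cKO, 450.1 and 465 with SpiB KO and 577 and 606 with PU.1 SpiB DKO. It rose in PU.1 SpiB DKO (log2 fold change 0.28 ± 0.08, adjusted p = 0.03) and in PU.1 cKO (log2 fold change 0.36 ± 0.08, adjusted p = 0.023). Cope had 98.2 and 101 CPM in control, 103 and 104 with PU.1 cKO, 94.1 and 105 with SpiB KO and 121 and 132 with PU.1 SpiB DKO (log2 fold change 0.35 ± 0.09, adjusted p = 0.013), and Copa was the other COPI gene past the test (0.17 ± 0.07). Lman1, DE after CD40L + IL-4, was called in PU.1 cKO (log2 fold change 0.34 ± 0.11, adjusted p = 0.079) and did not pass in PU.1 SpiB DKO (log2 fold change 0.18 ± 0.11, adjusted p = 0.22).

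Of the 5 signal peptidase genes 4 rose after LPS + IL-4 in PU.1 cKO and in PU.1 SpiB DKO, and 2 were DE in the latter. Sec11c had 136 and 134 CPM in control, 156 and 168 with PU.1 cKO, 132 and 126 with SpiB KO and 217 and 216 with PU.1 SpiB DKO. It was 1.60-fold higher than control in the libraries labelled PU.1 SpiB DKO (log2 fold change 0.68 ± 0.08, adjusted p = 0.00019) and higher than in PU.1 cKO (log2 fold change 0.42 ± 0.08, adjusted p = 0.0067). It was also the 1 member with an interaction (0.49 ± 0.11, adjusted p = 0.12), where 1.48% of all genes had one. The difference in Cre and floxed Spi1 between SpiB KO and control limits this call as well. The interaction count was 6 with the replicate number as a block, 2 without control replicate 2 and 0 without any 1 of the other 7 libraries. Spcs1, an accessory subunit, rose by 0.62 ± 0.11, and Spcs2 (0.52 ± 0.08) and Spcs3 (0.30 ± 0.08) by less. Against PU.1 cKO the libraries labelled PU.1 SpiB DKO had 7 members higher and 2, Srpr and Arcn1, lower, against 19.5% and 16.8% of all genes, and Sec24d and Kdelr1 were DE against 8.1%. That count of 2 became 1 without PU.1 SpiB DKO replicate 1. The 0 DE members of SpiB KO became 1 without SpiB KO replicate 1. Of the 27 members called in PU.1 SpiB DKO 12 stayed past the adjusted p without each library in turn, and of the 16 in PU.1 cKO 2 did, Sec24d and Spcs2.

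The Sec24 paralogs, which choose the cargo of COPII vesicles, were not called in a common direction in PU.1 SpiB DKO, where Sec24d was higher and Sec24b lower than control in every stage. Compared per length, on the deposited log2 RPKM scale, Sec24c was the most abundant of the 4 in control of every stage (5.83 ± 0.06, 5.76 ± 0.12 and 5.71 ± 0.02, mean ± SD, n = 2, in naive, CD40L + IL-4 and LPS + IL-4), and Sec24a and Sec24d were the least. Sec24d had 16.2 and 10.03 CPM in control, 6.82 and 6.57 with PU.1 cKO, 31.2 and 22.5 with SpiB KO and 31.6 and 28.4 with PU.1 SpiB DKO in naive cells. There it fell in PU.1 cKO (log2 fold change -0.97 ± 0.25, adjusted p = 0.05). It rose in SpiB KO (log2 fold change 1.03 ± 0.23, adjusted p = 0.035) and in PU.1 SpiB DKO (log2 fold change 1.19 ± 0.23, adjusted p = 0.0071), so PU.1 SpiB DKO was above PU.1 cKO by 4.47-fold (log2 fold change 2.16 ± 0.25, adjusted p = 0.0004). In the cultures it rose in both genotypes labelled as lacking PU.1. After CD40L + IL-4 it had 18.1 and 15.1 CPM in control, 58.9 and 62.7 with PU.1 cKO, 7.59 and 17.9 with SpiB KO and 65.8 and 58.7 with PU.1 SpiB DKO. It was 3.66-fold and 3.75-fold higher than control in PU.1 cKO (log2 fold change 1.87 ± 0.29, adjusted p = 0.0025) and PU.1 SpiB DKO (log2 fold change 1.91 ± 0.29, adjusted p = 0.0017). The SpiB KO libraries lay far apart from each other. After LPS + IL-4 it had 15.2 and 11.4 CPM in control, 38.8 and 38.2 with PU.1 cKO, 15.5 and 14.4 with SpiB KO and 63.0 and 55.4 with PU.1 SpiB DKO. This was 2.93-fold control with PU.1 cKO (log2 fold change 1.55 ± 0.14, adjusted p = 0.00014) and 4.50-fold with PU.1 SpiB DKO (log2 fold change 2.17 ± 0.14, adjusted p = 9.8e-06), the largest fold of any member in this stage. The libraries labelled PU.1 SpiB DKO were above those of PU.1 cKO (log2 fold change 0.62 ± 0.13, adjusted p = 0.013).

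Sec24b was called lower in PU.1 SpiB DKO throughout, and in naive PU.1 cKO it fell as Sec24d did. In naive cells it had 90.9 and 100.3 CPM in control, 70.9 and 74.4 with PU.1 cKO, 76.5 and 70.2 with SpiB KO and 57.6 and 66.4 with PU.1 SpiB DKO, below control in all 3 genotypes, with the lowest values in PU.1 SpiB DKO (log2 fold change -0.62 ± 0.12, adjusted p = 0.0061). After CD40L + IL-4 it had 108 and 93.6 CPM in control, 87.5 and 86.7 with PU.1 cKO, 88.2 and 91.6 with SpiB KO and 69.9 and 71.95 with PU.1 SpiB DKO, and fell with the double loss (log2 fold change -0.50 ± 0.15, adjusted p = 0.043). After LPS + IL-4 it had 144 and 144 CPM in control, 124 and 117 with PU.1 cKO, 136 and 131 with SpiB KO and 109.8 and 106 with PU.1 SpiB DKO, again a fall in the libraries labelled PU.1 SpiB DKO (log2 fold change -0.41 ± 0.08, adjusted p = 0.003). Sec24a fell in naive PU.1 SpiB DKO (log2 fold change -0.52 ± 0.16, adjusted p = 0.045) and rose in that genotype after CD40L + IL-4 (log2 fold change 0.55 ± 0.21, adjusted p = 0.11) and after LPS + IL-4 (log2 fold change 0.38 ± 0.12, adjusted p = 0.038). Sec24c passed the test in no comparison of a genotype with control, with log2 fold changes in PU.1 SpiB DKO of -0.07 ± 0.11, 0.04 ± 0.15 and 0.12 ± 0.07 in naive, CD40L + IL-4 and LPS + IL-4.

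**Figure D4:**
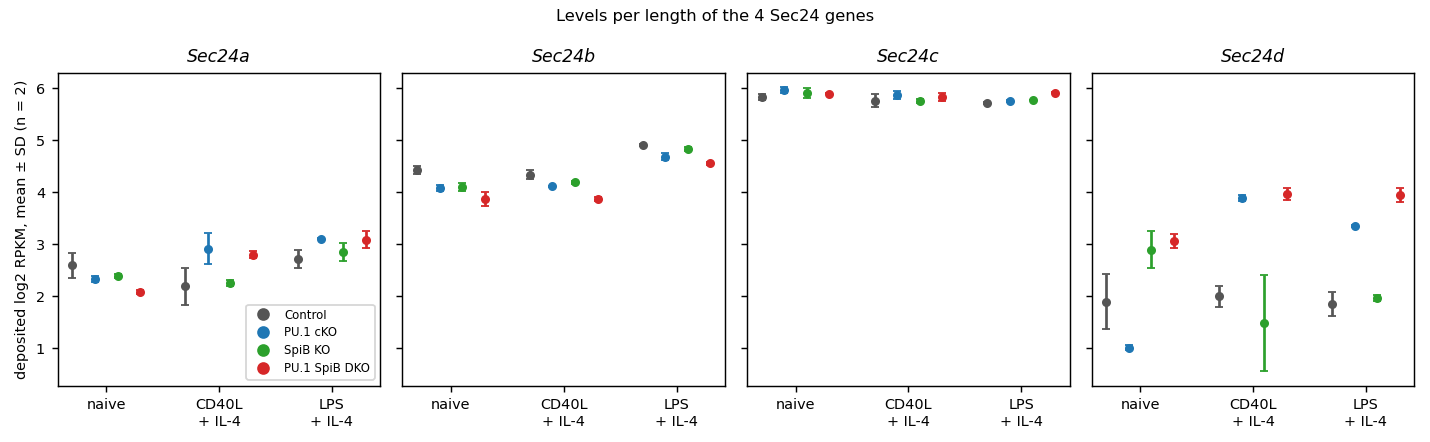
Deposited log2 RPKM (mean of 2 libraries, bars are SD) of Sec24a, Sec24b, Sec24c and Sec24d in the 4 genotypes and 3 stages. In both cultures Sec24d has the lowest mean of the 4 in control and lies above Sec24a in PU.1 cKO and in the libraries labelled as double knockout, while Sec24c stays above the other three.

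Kdelr1 was the 1 member that was higher in SpiB KO in naive cells and after LPS + IL-4 and higher in PU.1 SpiB DKO than in PU.1 cKO in both cultures. In naive cells it had 154 and 142 CPM in control, 156 and 151 with PU.1 cKO, 232 and 186 with SpiB KO and 209.6 and 172 with PU.1 SpiB DKO. It rose in SpiB KO (log2 fold change 0.50 ± 0.14, adjusted p = 0.069) and in PU.1 SpiB DKO (log2 fold change 0.37 ± 0.14, adjusted p = 0.089). After CD40L + IL-4 it had 91.6 and 118 CPM in control, 101 and 114 with PU.1 cKO, 158 and 152 with SpiB KO and 187 and 175 with PU.1 SpiB DKO, with every SpiB KO and PU.1 SpiB DKO library above every control and PU.1 cKO library. The rise passed in PU.1 SpiB DKO (log2 fold change 0.79 ± 0.16, adjusted p = 0.0097) and not in SpiB KO (log2 fold change 0.57 ± 0.16, adjusted p = 0.63). After LPS + IL-4 it had 64.2 and 63.6 CPM in control, 72.0 and 75.4 with PU.1 cKO, 88.04 and 98.6 with SpiB KO and 123 and 131 with PU.1 SpiB DKO. It rose in SpiB KO (log2 fold change 0.55 ± 0.08, adjusted p = 0.012) and in PU.1 SpiB DKO (log2 fold change 0.99 ± 0.08, adjusted p = 4.1e-05, 1.99-fold). PU.1 cKO differed from control by 0.21 ± 0.08 on the log2 scale, adjusted p = 0.18. The gene lies at chr7:45872840-45883726 (GRCm38.p6), 1.34 Mb from Spib on the same chromosome, and whether linked sequence moved with the Spib null allele was not tested.

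Whether the difference of PU.1 SpiB DKO from control changed with the stage was tested as the interaction of genotype and stage over all 24 libraries. The CD40L + IL-4 libraries were deposited apart from the naive and LPS + IL-4 libraries. In comparisons of that culture with another stage, stage and deposit cannot be told apart. Spi1 itself differed less from control in naive cells (-0.63 ± 0.11) than after CD40L + IL-4 (-1.73 ± 0.21), a difference of -1.09 ± 0.22 (adjusted p = 0.0025), so stage and completeness of the deletion cannot be told apart here. The difference between PU.1 SpiB DKO and control was more positive after CD40L + IL-4 than in naive cells for 14 members and more negative for 0, where 7.16% of all 13684 genes were more positive and 9.62% more negative, and the median over the members was 0.36 on the log2 scale. The difference of the effects was widest for Sec61g (log2 fold change 1.70 ± 0.43, adjusted p = 0.014). It was 1.08 ± 0.24 for Sec24a, 1.06 ± 0.21 for Lman1, 0.84 ± 0.19 for Rpn1 and 0.77 ± 0.22 for Srprb. Lman1 was at 54.6 and 52.8 CPM in naive control and 50.9 and 56.5 in naive PU.1 SpiB DKO, so that naive cells of both genotypes overlapped. In the LPS + IL-4 libraries, under their labels, the effect was below that after CD40L + IL-4 for 17 members and above it for 0, against 15% and 13.6% of all genes, with a median of -0.34 and, for example, Srp19 at -0.98 ± 0.24, Lman1 at -0.95 ± 0.21 and Srprb at -0.87 ± 0.21. Spi1 itself differed by 1.54 ± 0.22 (adjusted p = 0.00033) in that comparison. Against naive cells the effect was higher after LPS + IL-4 for 4 members and lower for 0, where 13.5% and 16% of all genes were, and these were Sec24d (0.92 ± 0.36), Sec24a, Kdelr1 and Stt3b. A replicate block gave 26 and 27 in place of 14 and 17, and in place of the 4 it gave 5 higher and 6 lower.

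These counts depended on single libraries. The 14 became 9 without CD40L + IL-4 control replicate 1. The 17 became 10 without that library or PU.1 SpiB DKO replicate 2 of CD40L + IL-4, 8 without PU.1 SpiB DKO replicate 1 of LPS + IL-4 and 6 without control replicate 2 of LPS + IL-4. The 4 became 3 higher and 5 lower without naive control replicate 1, 3 higher and 4 lower without LPS + IL-4 control replicate 1, and 2 without LPS + IL-4 control replicate 2 or PU.1 SpiB DKO replicate 2.

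In control cells members of most role groups rose or fell on activation, as many other genes did. Levels are given here as CPM normalised over all 24 libraries. After CD40L + IL-4 19 members were higher and 10 lower than in naive cells, against 32.7% and 32% of all genes, with 8 DE against 35.1%. After LPS + IL-4 25 were higher and 8 lower, against 39% and 37.9%, with 21 DE against 47.5%. Between the cultures 23 were higher after LPS + IL-4 and 5 lower, against 29.8% and 29.6%, with 11 DE against 31.2%. Since the CD40L + IL-4 libraries were deposited apart from the others, both comparisons with that culture also differ in deposit. Members were thus DE less often than all genes in each of these comparisons. Higher calls were more frequent, and lower calls less frequent, than over all genes. The medians were 0.14, 0.36 and 0.24. Srp72, a scaffold of SRP, rose most and had 78.8 and 82.8 CPM in naive cells, 213 and 173 after CD40L + IL-4 and 245 and 268 after LPS + IL-4. The rises were 1.26 ± 0.16 and 1.67 ± 0.16 (adjusted p = 2.1e-06 and 2.3e-08). Srp54a followed with 6.55 and 4.54 CPM in naive cells, 13.98 and 9.53 after CD40L + IL-4 and 14.1 and 15.1 after LPS + IL-4 (1.09 ± 0.24 and 1.40 ± 0.23), subject to the limit of its copies given above. Lman1 had 59.3 and 55.2 CPM in naive cells, 75.7 and 86.8 after CD40L + IL-4 and 122 and 155 after LPS + IL-4, with rises of 0.50 ± 0.15 and 1.28 ± 0.15.

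After CD40L + IL-4 the signal peptidase subunit Sec11c rose and Spcs1 fell. Sec11c had 123 and 97.9 CPM in naive cells, 192 and 253 after CD40L + IL-4 and 131 and 132 after LPS + IL-4. It rose 2.02-fold after CD40L + IL-4 (log2 fold change 1.01 ± 0.16, adjusted p = 2.1e-05) and was then the most abundant member per length (8.17 ± 0.34 log2 RPKM, SD, n = 2), followed by Ssr4 at 7.54. After LPS + IL-4 its difference from naive cells did not pass the test (log2 fold change 0.25 ± 0.15, adjusted p = 0.15). Spcs1 had 85.0 and 69.2 CPM in naive cells, 47.3 and 63.5 after CD40L + IL-4 and 41.9 and 51.95 after LPS + IL-4 and fell in both cultures (-0.48 ± 0.16 and -0.71 ± 0.16). Dad1, the small oligosaccharyltransferase subunit named as a defender against cell death, had 227 and 202 CPM in naive cells, 111 and 130.4 after CD40L + IL-4 and 110.5 and 126 after LPS + IL-4, a fall in both cultures (-0.83 ± 0.15 and -0.86 ± 0.15). Srp14 had 151 and 132 CPM in naive cells, 77.8 and 102 after CD40L + IL-4 and 85.02 and 90.2 after LPS + IL-4, with differences from naive cells of -0.66 ± 0.13 and -0.69 ± 0.13. In naive cells it was the most abundant member per length at 7.44 ± 0.13 log2 RPKM, ahead of Sec11c at 7.13 ± 0.21 and Ddost at 7.10 ± 0.11, and Sec11c and Ddost did not differ beyond their spread. Kdelr1 had 167 and 148 CPM in naive cells, 88.4 and 115 after CD40L + IL-4 and 61.6 and 62.8 after LPS + IL-4, the largest fall after LPS + IL-4 (log2 fold change -1.34 ± 0.14, adjusted p = 6.3e-08). At the low end were Srp54a at 0.49 ± 0.36 and Sec24d at 1.89 ± 0.53 in naive cells.

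**Figure D5:**
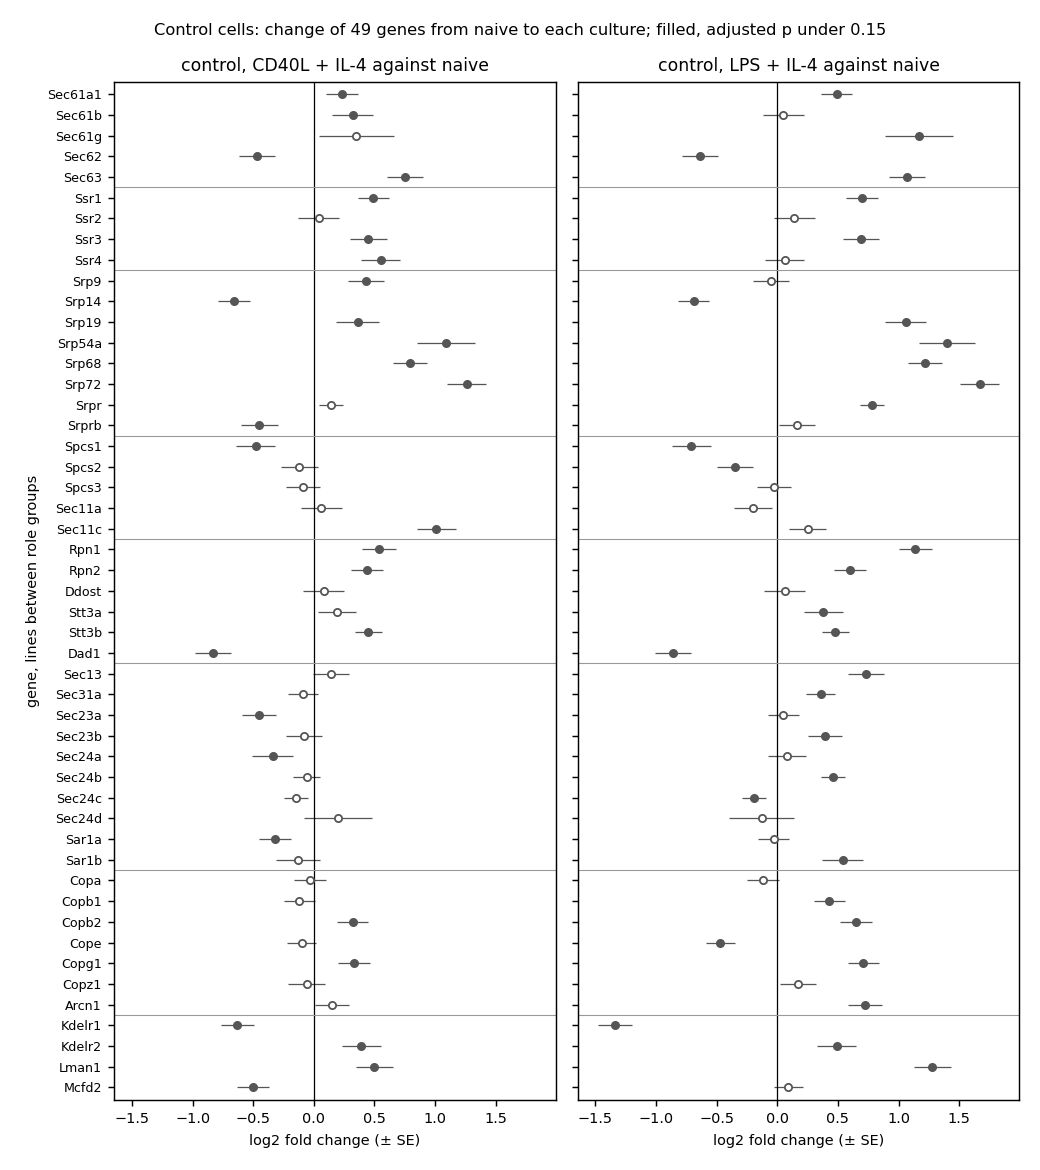
Log2 fold change (points, bars are SE) of each of the 49 genes in control cells after each culture against naive cells, with filled symbols for an adjusted p under 0.15. Srp72 and Srp54a rise and Kdelr1, Dad1 and Srp14 fall in both cultures, while Lman1 and Rpn1 rise more after LPS + IL-4.

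The 11 DE members between the cultures, 9 higher after LPS + IL-4 and 2 lower, became 4, all lower, without LPS + IL-4 control replicate 2. With size factors of DESeq2 they were 5 higher and 2 lower, and with limma's voom 3 and 3. Of the 33 members called between naive and LPS + IL-4 control 28 stayed past the adjusted p without each library in turn, against 15 of 29 for CD40L + IL-4 and 18 of 28 between the cultures.

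Other genes of the pathway, 67 in a list of translocation, glycosylation and vesicle transport factors that excludes the 49, were counted too. In PU.1 SpiB DKO 10 of 65 tested were higher and 5 lower in naive cells, against 18.2% and 16.6% of all genes. They were 24 of 66 and 1 after CD40L + IL-4, against 12.5% and 12.7%, and 26 of 65 and 6 after LPS + IL-4, against 25.6% and 22.4%. In SpiB KO 0 of 66 and 0 of 65 were called in the cultures. Tmed3, a p24 cargo receptor, and Ergic1, a membrane protein of the intermediate compartment, rose in naive PU.1 SpiB DKO (log2 fold change 1.19 ± 0.17, adjusted p = 0.0013 and log2 fold change 0.90 ± 0.15, adjusted p = 0.0026). After CD40L + IL-4 Alg2, which builds the glycan precursor, rose by 1.03 ± 0.20, and Krtcap2 and Ostc, accessory oligosaccharyltransferase subunits, by 0.95 ± 0.19 and 0.82 ± 0.19. After LPS + IL-4 Tram1 and Tram2, which aid chain entry at the translocon, rose by 1.20 ± 0.07 and 1.23 ± 0.24.

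Among 7 regulators of the unfolded protein response 2 were higher and 0 lower in PU.1 SpiB DKO after CD40L + IL-4, where 12.5% and 12.7% of all genes were, and 6 and 0 after LPS + IL-4, where 25.6% and 22.4% were. Xbp1 had 808 and 955 CPM in control, 1113 and 1300.0 with PU.1 cKO, 755 and 1015 with SpiB KO and 1643 and 1797 with PU.1 SpiB DKO after CD40L + IL-4. Its rise passed in PU.1 SpiB DKO (log2 fold change 0.96 ± 0.19, adjusted p = 0.0065) and not in PU.1 cKO (log2 fold change 0.45 ± 0.18, adjusted p = 0.17). After LPS + IL-4 it had 365 and 364 CPM in control, 675 and 750.5 with PU.1 cKO, 404 and 448 with SpiB KO and 1059 and 1085 with PU.1 SpiB DKO. This put PU.1 SpiB DKO 2.94-fold (log2 fold change 1.56 ± 0.09, adjusted p = 5e-06) and PU.1 cKO 1.96-fold (log2 fold change 0.97 ± 0.09, adjusted p = 0.00018) above control. The PU.1 SpiB DKO effect on Xbp1 was higher after LPS + IL-4 than after CD40L + IL-4 by 0.51 ± 0.21 on the log2 scale (adjusted p = 0.099).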

How the data were processed

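Reads were aligned by the authors to GRCm38/mm10 with Subread, uniquely mapped reads were kept, and featureCounts gave the deposited raw counts per RefSeq gene; the authors also deposited quantile-normalised log2 RPKM, used here for levels per length and as the expression threshold. Strand handling and tool versions are not given in the sources used here. The labels attach 1 extraction protocol, that of the CD40L + IL-4 culture, to every sample. Entries without a symbol (517, 0.162% of counts) stayed in the library totals and out of the members.

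Libraries of a stage were fitted together with edgeR 4.0.16 (TMM, quasi-likelihood test, R 4.3.3) after the filter of 0.5 CPM in 2 libraries, and comparisons between stages used all 24. Members were read off the whole-table fit and p-values adjusted over all genes tested. The interaction, and differences of effects, were called on the adjusted p alone. Duplicates correlated at 0.9856 to 0.9949 and differed by more than sampling noise (chi-square per degree of freedom 9.74 to 111). Rn45s, a ribosomal RNA gene, stayed in the library totals and in these values, and its part in them was not tested. It held 0.185% to 3.62% of counts in naive libraries, 0.416% to 6.64% after CD40L + IL-4 and 0.49% to 3.26% after LPS + IL-4. Same-numbered replicates deviated together in naive cells (r from 0.168 to 0.381, 6 of 6 pairs over 0.1) and after LPS + IL-4 (0.418 to 0.603, 6 of 6). They did not do so in every pair after CD40L + IL-4 (-0.0472 to 0.403, 4 of 6). The main fits held no term for the replicate number, so their p-values do not use a pairing. The replicate block was an alternative setting only, with a term for every stage in the fit.

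The members, gene lists and tests were chosen with earlier results of these data known. Levels in every library are given for the member of each role group with the largest called PU.1 SpiB DKO fold, the 3 largest rises and falls in control, and up to 4 DE members of the other comparisons. Sec61a1, Sec24b and Siglech, also given per library, were chosen after their values were seen. Alternatives were RLE size factors, no filter, DESeq2 1.42.0, limma 3.58.1 voom with quantile normalisation, a replicate block, an adjusted p under 0.05, no RPKM threshold, and leaving out each library.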

Additional observations from a re-analysis of the deposited data

Results flagged for a closer look

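Each value here is the difference of 2 effects that passed the test of that difference at an adjusted p under 0.15 (edgeR's quasi-likelihood test). No explanation was tested for any of them. The CD40L + IL-4 libraries were deposited apart from the others, so in differences from that culture stage and deposit cannot be told apart. In naive PU.1 SpiB DKO cells Spi1 was only partly deleted, so a difference from naive cells also compares incomplete with complete deletion.

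The difference of PU.1 SpiB DKO from control was more positive after CD40L + IL-4 than in naive cells for 14 genes. In the translocon and its targeting these were Sec61a1 (0.54 on the log2 scale), Sec61g (1.70), Srpr (0.48) and Srprb (0.77). In cleavage and glycosylation they were Spcs2 (0.68), Rpn1 (0.84) and Dad1 (0.58). In the coats they were Sec31a (0.43), Sec23b (0.52), Sec24a (1.08) and Copg1 (0.47), and among cargo receptors Kdelr2 (0.74), Lman1 (1.06) and Mcfd2 (0.52). Without each library in turn 6 of the 14 stayed past the threshold, namely Sec61g, Srpr, Srprb, Rpn1, Sec24a and Lman1.

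The same effect was less positive or more negative after LPS + IL-4 than after CD40L + IL-4 for 17 genes. These were Sec61a1 (-0.62), Sec61g (-1.05), Ssr2 (-0.58), Srp14 (-0.52), Srp19 (-0.98), Srpr (-0.62), Srprb (-0.87), Spcs2 (-0.49), Rpn1 (-0.71), Ddost (-0.55) and Stt3a (-0.54), and in transport Sec13 (-0.57), Sar1a (-0.47), Sar1b (-0.64), Kdelr2 (-0.63), Lman1 (-0.95) and Mcfd2 (-0.63). Of these 6 stayed past the threshold without each library in turn. Sec61a1, Sec61g, Srpr, Srprb, Spcs2, Rpn1, Kdelr2, Lman1 and Mcfd2 are in both sets, which share the CD40L + IL-4 libraries.

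Against naive cells the effect after LPS + IL-4 was more positive for Stt3b (0.42), Sec24a (0.83), Sec24d (0.92) and Kdelr1 (0.56), and Sec24a alone stayed past the threshold without each library in turn. Sec11c after LPS + IL-4 was the 1 gene at which the PU.1 SpiB DKO effect differed from the sum of the single knockout effects (0.49), a call that was lost without any library but control replicate 2. SpiB KO carried no Cre and control no floxed Spi1, so an effect of these cannot be told apart from the interaction.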

How the results depend on the processing

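The balance of higher and lower calls turned in 3 counts. For the PU.1 SpiB DKO effect after LPS + IL-4 against naive cells, 4 higher and 0 lower became 5 and 6 under the replicate block, 3 and 5 without naive control replicate 1 and 3 and 4 without LPS + IL-4 control replicate 1. In control 5 higher and 3 lower after CD40L + IL-4 became 5 and 6 without control replicate 2 of that culture, and 9 higher and 2 lower between the cultures became 0 and 4 without control replicate 2 of LPS + IL-4. Leaving out 1 library at a time moved the DE counts over these ranges, with the lone remaining library assumed to vary like the other groups. In naive cells they were 0 to 1 for PU.1 cKO, 0 to 3 for SpiB KO, 1 to 8 for PU.1 SpiB DKO, 1 to 1 for PU.1 SpiB DKO set against PU.1 cKO and 0 to 1 for the interaction. After CD40L + IL-4 they were 3 to 12, 0 to 0, 16 to 23, 0 to 0 and 0 to 0 in the same order, and after LPS + IL-4 1 to 1, 0 to 1, 3 to 5, 1 to 2 and 0 to 2. In control they were 9 to 12 for CD40L + IL-4 against naive, 15 to 23 for LPS + IL-4 against naive and 4 to 13 between the cultures. For the PU.1 SpiB DKO effect they were 9 to 18, 2 to 8 and 6 to 23.

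Under a replicate block, that is the replicate number as a term, the interaction counts rose to 2 in naive cells and 6 after LPS + IL-4, and the counts of different PU.1 SpiB DKO effects to 26 (CD40L + IL-4 against naive), 11 (LPS + IL-4 against naive) and 27 (between the cultures). The block changed none of the other counts by over 1.5 times and none of the 257 named calls. An adjusted p under 0.05 left 0 members for naive PU.1 cKO, 0 for the LPS + IL-4 interaction and 8, 1 and 7 for the effects in that order. No filter gave 1 for the naive interaction and 9 for the effect of CD40L + IL-4 against naive, and DESeq2 gave 1 for the naive interaction. Between the cultures in control RLE size factors and DESeq2 gave 7 (5 higher, 2 lower) and voom 6 (3 and 3), against 11 (9 and 2). For naive PU.1 SpiB DKO voom gave 4 higher and 0 lower, against 2 and 1. The cause of these moves was not tested. Of the 257 named calls DESeq2 kept 242, RLE 249, no filter 237 and voom 240, and over the 1172 fits without 1 library 801 kept the call and 371 lost it. Each group holds 2 libraries, and Sec61g had the lowest counts, down to 28 in 1 naive library.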
